A study of Rattus norvegicus with 2 samples.

Results

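Sestrins are stress-responsive proteins that restrain the growth kinase mTOR, and 10 genes of this system were examined in cultured precursors of rat oligodendrocytes (OPCs), glial cells that divide and then mature into the cells that wrap axons in myelin. The genes are the sestrins Sesn1, Sesn2 and Sesn3, the mTOR inhibitors Ddit4 and Deptor, the kinase Mtor, its partners Rptor and Rictor, and the tuberous sclerosis genes Tsc1 and Tsc2. They were taken from the deposited table by symbol, and all 10 were found among its 17455 genes. The set was chosen by a measured value, the low Sesn3 level in the Slit1 library, and every difference below comes from the same pair of libraries, so all values are descriptions and none was tested.

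The cells were labelled wild type. In the Slit1 group they had been transfected with Slit1, a secreted ligand of Robo receptors, and in the vector group with a vector, labelled control. Each group had 1 library of total RNA, while the sources used here do not give the age of the animals, the number of cultures or the time after transfection. The question of the series is what Slit1 overexpression does to OPCs during differentiation.

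mTOR works in a pair of complexes. mTORC1, built around Rptor, promotes protein and lipid synthesis when amino acids and growth factors are present, and mTORC2, built around Rictor, phosphorylates Akt and related kinases. The TSC complex switches off Rheb, the small GTPase that activates mTORC1, while sestrins bind the GATOR2 complex and hold mTORC1 back when leucine is scarce. In mice, both complexes are known to act in oligodendrocyte differentiation and myelination.

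The libraries held 18998770 estimated counts in Slit1 and 18817462 in vector. The transfected gene, Slit1, measured 229.7 TPM (the authors' length-corrected unit, which sums to the same total in each library) in the Slit1 library and 1.70 TPM in vector. All 7 precursor markers were present at 10.07 TPM or more in both libraries, and 1 of them, Sox10, was 3.05-fold higher in Slit1 (218.03 TPM in Slit1 and 71.4 TPM in vector). The 7 oligodendrocyte markers, all at least 1.5-fold higher in Slit1, summed to 3708 TPM in Slit1 and 835.9 TPM in vector. Astrocyte markers were abundant too: the 6 of them summed to 7832 TPM in Slit1 and 6522 TPM in vector, most of it from Gfap (6130 TPM in Slit1 and 4694 TPM in vector), and 1 of them, Slc1a2, was 2.29-fold lower in Slit1. Neuronal markers summed to 63.02 TPM in Slit1 and 53.3 TPM in vector, most of it from Tubb3 (46.5 TPM in Slit1 and 33.6 TPM in vector). Tubb3 and Gad1 were higher in Slit1, while Rbfox3, Snap25, Syt1 and Slc17a7 were lower. The 5 measured microglial markers summed to 1.42 TPM in Slit1 and 1.11 TPM in vector. Of the fibroblast and pericyte markers 3 were measured, summing to 11.9 TPM in Slit1 and 10.9 TPM in vector, with Dcn listed at 0 in vector. The 4 endothelial markers summed to 2.65 TPM in Slit1 and 4.91 TPM in vector, most of it from Flt1 (2.25 TPM in Slit1 and 4.51 TPM in vector). Fewer cells of a type and less RNA per cell cannot be told apart in such bulk libraries, and the part of these shifts in the results below was not tested.

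The stretches of the rat genome just before the starts of the 3 sestrin genes are shown because these paralogs encode related proteins but had unlike ratios between the libraries. They come from RefSeq (build GRCr8), written 5′ to 3′ on the gene's own strand, and the capitals mark ATTGG, the CCAAT box read on the opposite strand. The CCAAT box is a common promoter element bound by the factor NF-Y.
Sesn3, chr8:19415177-19415306, plus strand: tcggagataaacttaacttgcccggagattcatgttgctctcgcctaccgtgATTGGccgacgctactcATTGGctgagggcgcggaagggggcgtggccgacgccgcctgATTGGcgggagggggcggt
Sesn2, chr5:150005256-150005505, minus strand: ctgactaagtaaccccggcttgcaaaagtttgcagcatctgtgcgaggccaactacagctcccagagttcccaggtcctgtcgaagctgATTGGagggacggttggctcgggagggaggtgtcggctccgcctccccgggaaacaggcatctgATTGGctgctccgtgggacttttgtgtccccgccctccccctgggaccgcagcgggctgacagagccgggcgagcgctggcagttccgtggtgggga
Sesn1, chr20:46948469-46948718, plus strand: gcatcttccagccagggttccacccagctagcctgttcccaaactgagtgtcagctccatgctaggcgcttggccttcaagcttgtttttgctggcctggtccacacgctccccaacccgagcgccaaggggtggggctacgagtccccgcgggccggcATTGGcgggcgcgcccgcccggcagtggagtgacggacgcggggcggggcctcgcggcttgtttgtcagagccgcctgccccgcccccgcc

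For Sesn3 the 130 bases ahead of the first annotated start of the gene are printed, and the Sesn1 window lies at the start used in the RefSeq table, inside the span of the gene. In the 250 bases before the start, CCAAT was found on either strand 3 times at Sesn3, 2 times at Sesn2 and 1 time at Sesn1. The Sesn3 matches lay 198 to 194, 181 to 177 and 139 to 135 bases before the start used in the table. Mtor also had 3 matches, Ddit4 had 2, and Rictor, Tsc1 and Tsc2 had none. Among 33469 rat promoters, 34.0% held at least 1 match, 9.42% at least 2 and 2.52% at least 3. The forkhead site GTAAACA, the E-box CACGTG and the ATF4 composite site TGATGNAA, searched on both strands, were found in none of these 8 promoters, and in 3.21%, 5.59% and 3.40% of all promoters. The motifs were chosen after the sestrin promoters had been read, and a link between these matches and the ratios between libraries was not tested.

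Sesn3 was the gene of the set that stood apart. It measured 16.5 TPM (426.4 estimated counts) in Slit1 and 47.8 TPM (1186 estimated counts) in vector. The level in Slit1 was thus 2.89-fold lower as a ratio of TPM, with a 95% counting interval of 2.59 to 3.24, and on the log2(TPM + 1) scale the Slit1 value minus the vector value was -1.48. Of the 13175 genes that averaged 1 TPM or more, 25 had a lower difference than Sesn3. By library-scaled counts (CPM), which have no length term, the ratio of Slit1 to vector was 0.356, and by FPKM it was also 0.356, against 0.345 by TPM. RefSeq places a long noncoding RNA (LOC120094081) across the start of Sesn3, and whether reads of that RNA were counted to the gene was not tested.

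Its paralogs had ratios nearer to 1. Sesn2, the best studied leucine sensor of the family, measured 32.6 TPM in Slit1 and 38.0 TPM in vector, from 780.9 and 873.8 estimated counts. That was a ratio of 0.859 with an interval of 0.779 to 0.947, a small step that lay below 1 beyond counting error. Sesn1, a p53-responsive sestrin, measured 21.5 TPM in Slit1 and 21.4 TPM in vector, with a ratio of 1.002 and an interval of 0.883 to 1.14. The summed sestrin level was 70.6 TPM in Slit1 and 107.2 TPM in vector, and its make-up differed. Sesn3 supplied 23.4% of the sum in Slit1 and 44.6% in vector. Sesn2 supplied 46.2% in Slit1 and 35.4% in vector, and Sesn1 30.4% in Slit1 and 19.996% in vector. The most abundant sestrin transcript was therefore Sesn2 in Slit1 and Sesn3 in vector.

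Ratios taken within a library do not depend on how the libraries were scaled to each other. Sesn3 stood at 0.768 times the TPM of Sesn1 in Slit1 and at 2.23 times in vector, a 2.90-fold lower ratio in Slit1 with a counting interval of 2.46 to 3.43. Against Sesn2 it stood at 0.506 times in Slit1 and 1.26 times in vector, 2.49-fold lower in Slit1 with an interval of 2.15 to 2.88.

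**Figure D1:**
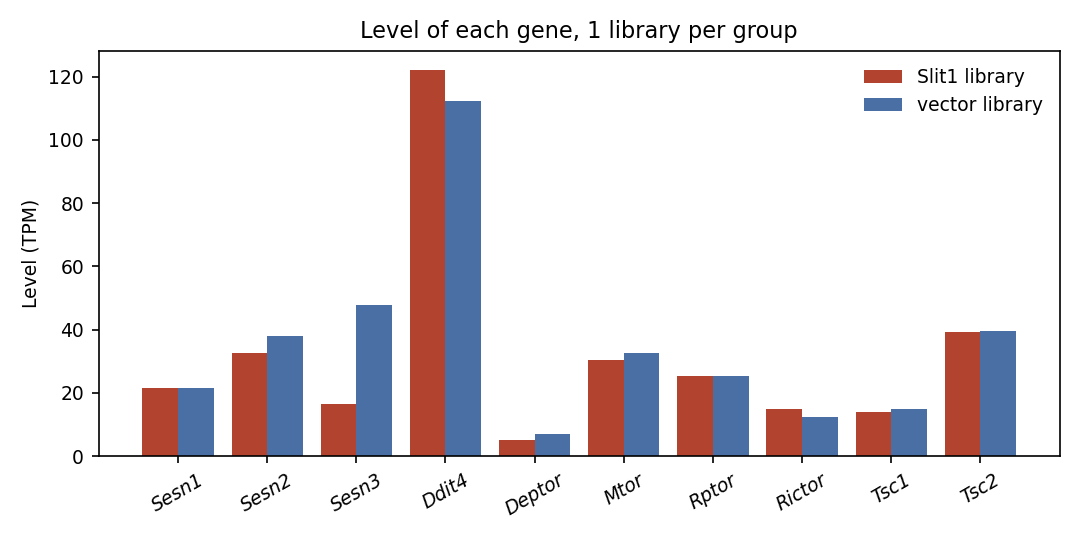
Level in TPM of each of the 10 genes in the Slit1 library (left bar) and the vector library (right bar), 1 library per group and no error bars. Sesn3 stands at 16.5 TPM in Slit1 and 47.8 TPM in vector, while the bars of each other gene are close in height and Ddit4 is the most abundant in both libraries.

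The other upstream inhibitors went in different directions by small steps. Ddit4 encodes Redd1, a stress-induced protein that restrains mTORC1 through the TSC complex, and was the most abundant of the 10 genes in both libraries. It measured 122.1 TPM in Slit1 and 112.2 TPM in vector, a ratio of 1.09 with an interval of 1.02 to 1.16. Deptor, which binds mTOR directly and inhibits the kinase, was the least abundant. Its level was 5.10 TPM (285.1 estimated counts) in Slit1 and 6.93 TPM (384.3 estimated counts) in vector. After Sesn3 it had the lowest ratio of the set, 0.736 with an interval of 0.629 to 0.860, short of the 1.5-fold limit. Relative to Mtor, Deptor stood at 0.168 times in Slit1 and 0.213 times in vector.

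TSC1 and TSC2 proteins form the complex that switches off Rheb. Tsc1 measured 13.96 TPM in Slit1 and 14.9 TPM in vector (ratio 0.940, interval 0.859 to 1.03). Tsc2 measured 39.4 TPM in Slit1 and 39.6 TPM in vector (ratio 0.994, interval 0.932 to 1.06). Both intervals held 1, and the ratio of Tsc1 to Tsc2 was 0.355 in Slit1 and 0.375 in vector, a change of 0.946 times with an interval of 0.848 to 1.05. In RefSeq Tsc2 overlaps its neighbour Pkd1 at one end, and Pkd1 measured 18.4 TPM in Slit1 and 19.01 TPM in vector.

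The kinase and its scaffolds were similar in level between the libraries. Mtor measured 30.4 TPM in Slit1 and 32.6 TPM in vector, with a ratio of 0.932 (interval 0.880 to 0.987). Rptor, the scaffold that brings substrates to mTORC1, measured 25.4 TPM in both libraries, with a ratio of 1.001 (interval 0.927 to 1.08). Rictor, the defining subunit of mTORC2, measured 14.8 TPM in Slit1 and 12.4 TPM in vector, with a ratio of 1.19 (interval 1.09 to 1.29) that was the highest of the set. Accordingly Rptor stood at 1.72 times the level of Rictor in Slit1 and at 2.05 times in vector, a change of 0.842 times with an interval of 0.752 to 0.942.

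**Figure D2:**
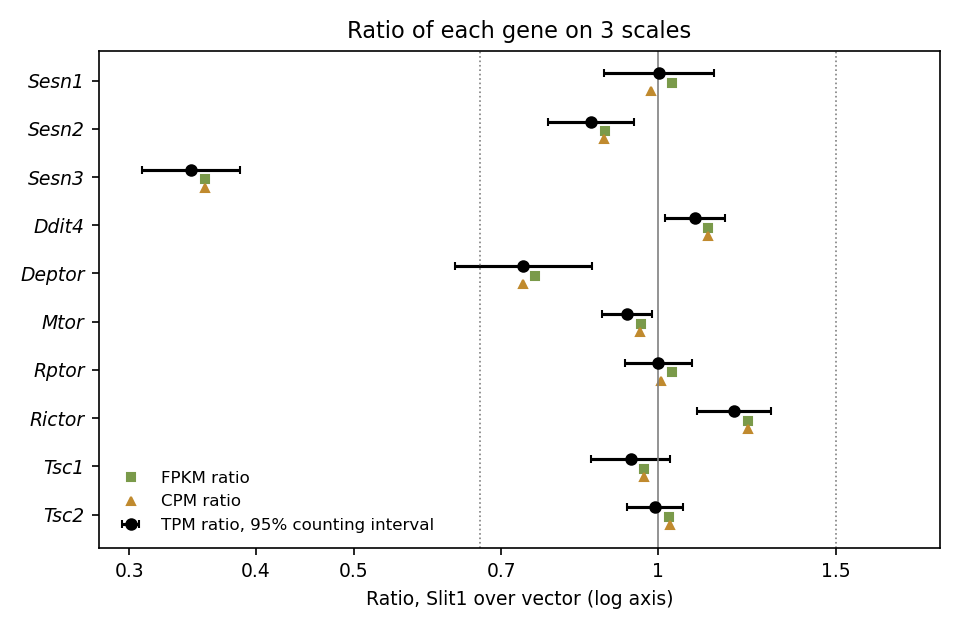
Ratio of Slit1 to vector for each gene on a log axis, by TPM with its 95% counting interval (circles with bars), by FPKM (squares) and by CPM (triangles). Dotted lines mark 1.5-fold in either direction and the solid line marks 1. Sesn3 lies near 0.35 on each scale and the points of the other 9 genes lie between the dotted lines.

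Counted together, 1 of the 10 genes was at least 1.5-fold lower in Slit1, where 4.83% of all genes tested were, and 0 were at least 1.5-fold higher, where 3.72% were. At a weaker limit of 0.32 on the log2 scale 2 were lower, against 17.9% of all genes, and 0 higher, against 10.7%. At 2-fold 1 was lower, against 0.645%, and 0 higher, against 1.24%. Nothing is read from these counts, since the set was built around Sesn3. All 10 genes passed the floor of 1 TPM. Their median difference was -0.05 on the log2(TPM + 1) scale, and the median of all genes tested was also -0.05. By counting error alone, 4 intervals of TPM ratios lay below 1 (Sesn3, Deptor, Sesn2 and Mtor), 2 above it (Rictor and Ddit4) and 4 held 1. Their place relative to 1 depends on the scaling between libraries. Mtor had a ratio of 0.932 by TPM and 0.961 by CPM, and no interval was computed by CPM. The middle 50% of all genes lay between -0.24 and 0.15, and all members but Sesn3, Deptor and Rictor lay inside that range. These intervals do not include the spread between cultures, which 1 library per group cannot show. Besides Sesn3 and Tsc2, RefSeq has Sesn2 and Deptor overlapping noncoding RNAs or a pseudogene, and Mtor enclosing Angptl7 (0.52 TPM in Slit1 and 0.95 TPM in vector); the sharing of reads with these was not tested.

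**Figure D3:**
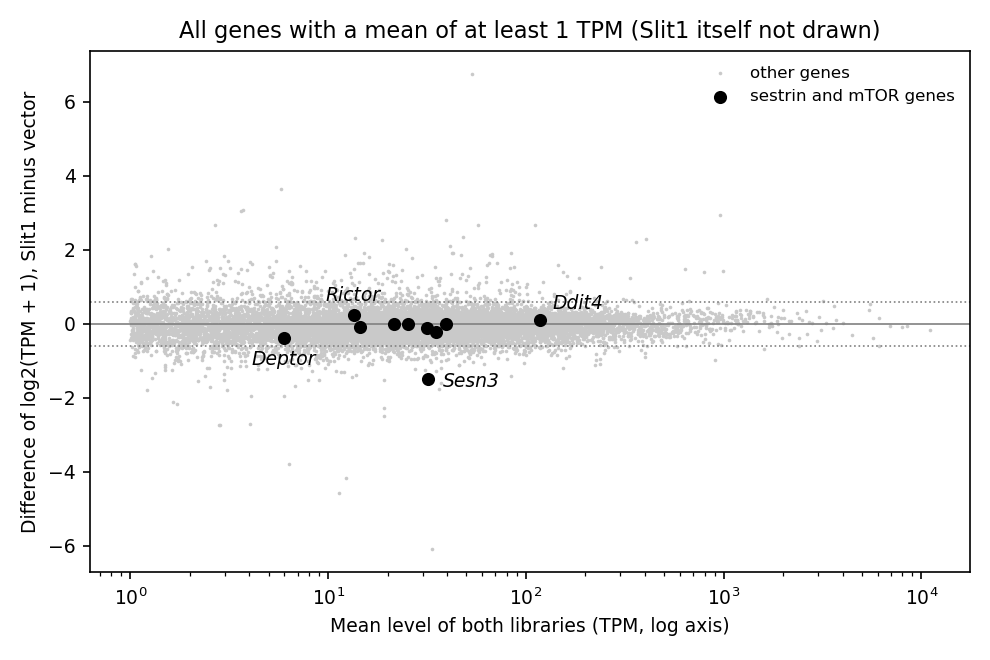
Slit1 minus vector difference on the log2(TPM + 1) scale against the mean level of both libraries in TPM on a log axis, for all genes that averaged 1 TPM or more (grey) and the 10 genes (black). Dotted lines mark 1.5-fold. Sesn3 lies at -1.48 below the main band, and the other 9 lie inside it, from -0.38 for Deptor to 0.23 for Rictor.

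In order of level, the 10 genes in Slit1 ran from Ddit4 through Tsc2, Sesn2, Mtor, Rptor, Sesn1, Sesn3, Rictor and Tsc1 to Deptor. Sesn3 held the seventh place there and the second place in vector, behind Ddit4. Neighbours such as Rictor and Tsc1 in Slit1 lay close together, and with 1 library per group their order has no replicate check. In Slit1 37.96% of the genes tested had a lower level than Sesn3, against 67.3% in vector. Among 10755 other named genes that reached 5 TPM in either library, those with the most similar pair of levels were Wwtr1, Dio2 and Chtopl1. The measure was the distance of log2(TPM + 1) over the 2 libraries, and it was 0.17, 0.26 and 0.28 for them. Wwtr1, which encodes the Hippo pathway coactivator TAZ, measured 17.8 TPM in Slit1 and 43.6 TPM in vector. Dio2, which converts thyroid hormone to its active form, measured 17.95 TPM in Slit1 and 56.3 TPM in vector. Chtopl1 measured 20.2 TPM in Slit1 and 49.9 TPM in vector.

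The wider pathway was described with 13 lists, which share some members and were drawn up with earlier results of these data known. They held 155 distinct genes that averaged 1 TPM or more, of which 3 (1.94%) were at least 1.5-fold higher in Slit1 and 16 (10.3%) at least 1.5-fold lower. The 10 genes are among the 155, and Sesn3, whose low value chose the set, is among the 16. The share of all genes tested past these limits was 3.72% and 4.83%. These shares, and the all-gene median of -0.05, are the values to set beside the counts and median of every list below. With the median gene set to 0 the pathway counts were 3 and 11, and the all-gene shares 4.43% and 3.72%. The lists were partly built from targets of factors known to act on the sestrin genes, so these shares describe the chosen genes and no more. List medians near 0 give no direction: those of the mTOR complex, TSC, GATOR, substrate and ATF4 target lists, all between -0.08 and 0, were above 0 under at least 1 of the other 5 scalings.

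No subunit or assembly factor of the mTOR complexes passed 1.5-fold in either direction. The list held 12 genes, 4 of them from the set of 10, and the median was -0.06. Prr5, a subunit of mTORC2, was the lowest of those outside the set, at 7.54 TPM in Slit1 and 10.01 TPM in vector (ratio 0.753, interval 0.641 to 0.885). Its relative Prr5l measured 14.5 TPM in Slit1 and 16.4 TPM in vector. Mlst8, shared by both complexes, measured 25.9 TPM in Slit1 and 23.7 TPM in vector.

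Among 7 genes of the TSC complex, Rheb and the Redd proteins, 1 was lower and 0 higher, with a median of -0.08. The lower gene was Ddit4l, which encodes Redd2, the paralog of Redd1, at 115.8 TPM in Slit1 and 212.7 TPM in vector (1.84-fold lower, interval 1.69 to 2.003). Thus Ddit4l was lower where Ddit4 had a ratio of 1.09. Rheb, the direct activator of mTORC1, measured 191.6 TPM in Slit1 and 246.4 TPM in vector (ratio 0.778, interval 0.732 to 0.826), and its relative Rhebl1 10.3 TPM in Slit1 and 9.36 TPM in vector.

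The complexes that sestrins act on showed no member past the limit. Sestrins bind GATOR2, which opposes GATOR1, the complex that inactivates the Rag GTPases, and KICSTOR anchors GATOR1 at the lysosome. Of 12 genes listed, 11 were measured, with a median of -0.003 and a range from -0.44 to 0.21. Kics2, a KICSTOR subunit, measured 5.57 TPM in Slit1 and 7.90 TPM in vector. Wdr59 of GATOR2 measured 19.5 TPM in Slit1 and 23.3 TPM in vector, and Kptn of KICSTOR 19.4 TPM in Slit1 and 16.6 TPM in vector.

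Of 17 measured amino acid sensors, Rag GTPases, Ragulator subunits and folliculin genes, 1 was lower and 0 higher, with a median of -0.07. Bmt2, which encodes the methionine-linked sensor SAMTOR, measured 16.4 TPM in Slit1 and 28.9 TPM in vector (1.76-fold lower, interval 1.44 to 2.15). Flcn, a GTPase-activating protein for Rag GTPases, measured 39.5 TPM in Slit1 and 27.5 TPM in vector, a ratio of 1.43 short of the limit. Rraga, one of the Rag GTPases, measured 92.8 TPM in Slit1 and 118.9 TPM in vector.

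AMPK, the energy sensor that opposes mTORC1 and that sestrins can activate, was represented by 12 genes with its kinase LKB1 and partners, of which 1 was higher and 0 lower (median 0.01). Prkag2, a regulatory gamma subunit, was the higher one, at 55.7 TPM in Slit1 and 34.1 TPM in vector (1.63-fold, interval 1.48 to 1.80). Both catalytic subunit genes had ratios below 1 without passing the limit. Prkaa1 measured 17.8 TPM in Slit1 and 24.1 TPM in vector, and Prkaa2 3.88 TPM in Slit1 and 5.43 TPM in vector.

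Upstream of mTOR, 3 of 13 genes of the PI3K and Akt pathway were lower and 0 higher (median -0.24). Of all genes tested 4.83% were lower and 3.72% higher. The lower genes included a pair of phosphatase genes. Phlpp2, an Akt phosphatase, measured 5.04 TPM in Slit1 and 8.75 TPM in vector (1.74-fold lower, interval 1.44 to 2.09). Inpp4b, a lipid phosphatase, measured 2.27 TPM in Slit1 and 3.97 TPM in vector (1.75-fold lower, interval 1.44 to 2.13). In FPKM, and with a pseudocount of 5, 1 of these 13 genes was lower by the same limit.

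Downstream, 1 of 22 substrates and effectors of the complexes was higher and 0 lower, with a median of -0.04. Sgk1, a kinase activated by mTORC2 and a glucocorticoid-induced gene, measured 77.2 TPM in Slit1 and 36.8 TPM in vector (2.10-fold higher, interval 1.93 to 2.29). Tfeb, the lysosomal transcription factor held in the cytoplasm by mTORC1, measured 25.6 TPM in Slit1 and 17.5 TPM in vector. Rps6kb2, an S6 kinase gene, measured 42.8 TPM in Slit1 and 31.96 TPM in vector. The ratios of these last genes were 1.47 and 1.34.

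**Figure D4:**
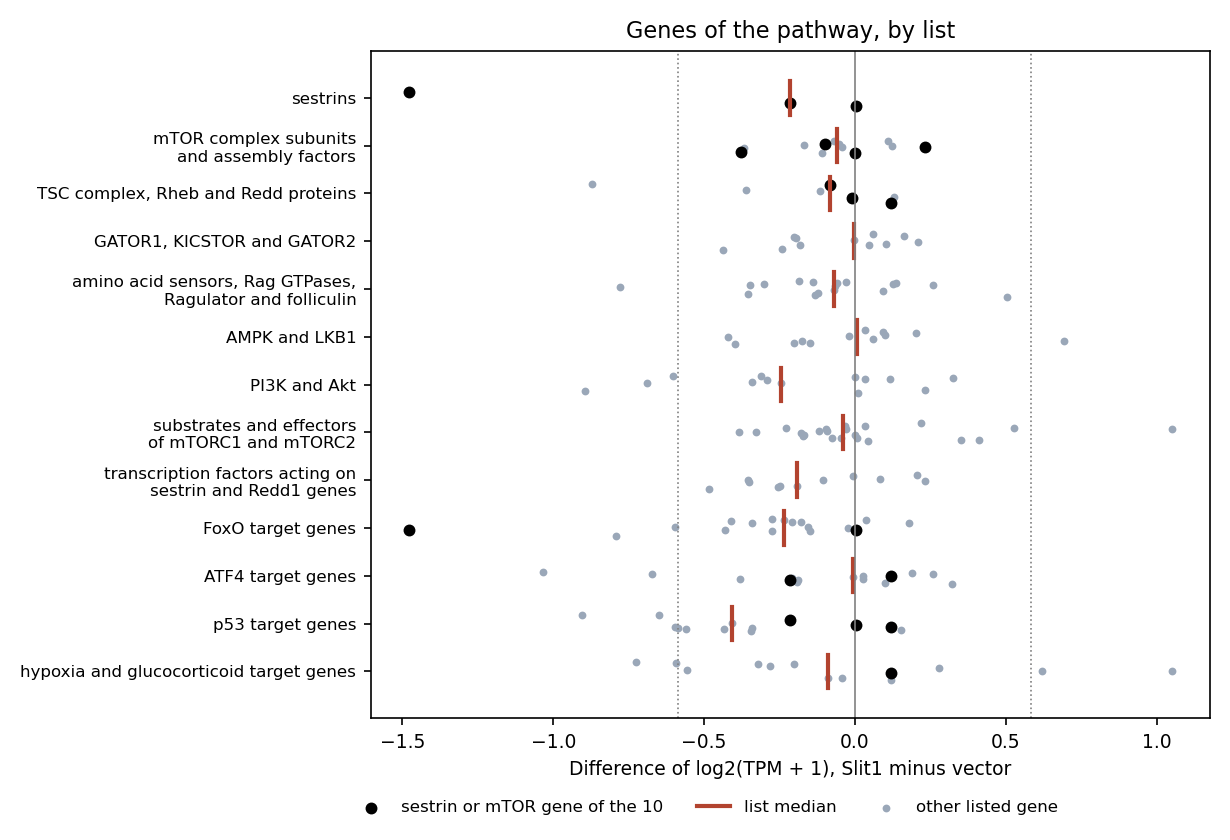
Slit1 minus vector difference on the log2(TPM + 1) scale for the tested genes of each of the 13 lists, 1 point per gene. Black points are the 10 sestrin and mTOR genes, the red bar is the list median and dotted lines mark 1.5-fold. Medians run from -0.41 for p53 target genes to 0.01 for AMPK and LKB1, and Sesn3 is the point farthest to the left.

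Transcription factors known from human or mouse cells to act on the sestrin and Redd1 genes were measured next, and 0 of 11 passed 1.5-fold in either direction (median -0.19, but -0.08 in CPM, -0.06 with edgeR TMM factors and -0.06 with DESeq2 factors). The factor genes with the largest differences were Nfe2l2, which encodes NRF2 (183 TPM in Slit1 and 256 TPM in vector), Hif1a (86.1 TPM in Slit1 and 110.3 TPM in vector) and Cebpb (77.9 TPM in Slit1 and 99.6 TPM in vector). Their ratios were 0.715, 0.781 and 0.782.

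Sesn3 is a known FoxO target. Of 17 measured FoxO target genes, 3 were lower, Sesn3 among them, and 0 higher, with a median of -0.23. Over all genes tested 4.83% were lower by that limit. The number of lower FoxO targets was 2 under each of the other 5 scalings, with a pseudocount of 5 and with a floor of 5 TPM. Cited2, a transcriptional coregulator, measured 64.1 TPM in Slit1 and 111.9 TPM in vector (1.74-fold lower, interval 1.62 to 1.88). Pdk4, a pyruvate dehydrogenase kinase, rested on 13 counts in Slit1 and 25 in vector, and its interval held 1. Cdkn1b, the cell cycle inhibitor p27, measured 78.8 TPM in Slit1 and 106.4 TPM in vector, short of the limit.

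Sesn2 and Ddit4 are targets of ATF4, the factor of amino acid starvation. Of 15 ATF4 target genes, 2 were lower and 0 higher (median -0.01), where 4.83% and 3.72% of all genes tested were. The number lower was 1 in FPKM, in CPM, with edgeR TMM or DESeq2 factors, with a pseudocount of 5 and with a floor of 5 TPM. Slc7a11, the cystine transporter, measured 21.3 TPM in Slit1 and 44.8 TPM in vector (2.10-fold lower, interval 1.98 to 2.23). Trib3, a pseudokinase, rested on 34 counts in Slit1 and 59 in vector. Chac1, a glutathione-degrading enzyme, rested on 59.04 and 77.99 estimated counts in Slit1 and vector, and its interval held 1.

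Among 13 p53 target genes, a list that holds Sesn1, Sesn2 and Ddit4, 4 were lower and 0 higher (median -0.41). Of all genes tested 4.83% were lower and 3.72% higher by that limit, with a median of -0.05. Eda2r, a TNF receptor family gene, measured 20.7 TPM in Slit1 and 39.6 TPM in vector (1.92-fold lower, interval 1.78 to 2.06). Mdm2, the ubiquitin ligase for p53, was 1.57-fold lower and Tp53inp1 1.52-fold lower, with Ccng1 the fourth. Under each of the other scalings tried 2 of these genes were lower by that limit. The sestrins of this list, Sesn1 and Sesn2, and Ddit4 had the ratios near 1 given above.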

How the data were processed

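RNA of 2 libraries, 1 Slit1 and 1 vector, was measured by RNA sequencing. The authors deposited 1 table with FPKM, TPM and estimated counts per gene, named so per the file headers. The TPM values deposited by the authors sum to the same total in each library, and the estimated counts are not whole. Per the submitters' processing notes the genome build was mRatBN7.2; for the aligner, counter, annotation and strand setting, the sources used here give nothing. The number of value columns of other samples was 0.

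Differences are log2(TPM + 1) in Slit1 minus that in vector, for genes that averaged 1 TPM or more; the pseudocount understates the change of low genes. Calls were made at 1.5-fold. Intervals of TPM ratios are exact (Clopper-Pearson) at 95%, from counts rounded to whole numbers, and those of ratios between genes use a normal approximation of the log ratio. Both cover counting error only. With 1 library per group no p-value was computed. The named genes are the 10 genes, Slit1, up to 3 others per list with the largest absolute difference, and the 3 nearest to Sesn3 (the values of 1 gene under this rule are left out); genes outside this rule are Pkd1, Angptl7 and the cell type markers, named for a check, and Ccng1 and Klf9, named after their values were seen to complete a count. Members, lists and tests were chosen with earlier results of these data known. Alternatives used edgeR 4.0.16 and DESeq2 1.42.0 for scaling factors alone. The calculation was tested on simulated data. Python 3.11.15 with scipy 1.17.1 was used. Sequences are from RefSeq (GRCr8), matched by symbol for 8 of the 10 genes, all but Deptor and Rptor.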

Additional observations from a re-analysis of the deposited data

How the results depend on the processing

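The Sesn3 difference ran from -1.53 to -1.30 over 9 alternatives of scaling, pseudocount and floor, the last with a pseudocount of 5. A floor only selects genes and cannot change this difference, which stayed at -1.48 under the floor alternatives. A pseudocount changes its size and cannot change its sign. Under the other scalings it ran from -1.45 in CPM to -1.38 in FPKM. Since Sesn3 was chosen for its low value, this range describes the size of the difference and is no support for it. The number of the 10 genes at least 1.5-fold lower was 1 and the number higher 0 under every alternative except a weaker limit of 0.32 on the log2 scale, where 2 were lower, the second being Deptor. At that limit 9 pathway genes were higher and 40 lower, and at 2-fold 1 was higher and 2 lower. The 16 lower pathway genes became 9 in FPKM and 9 with a pseudocount of 5. They became 11 in CPM, with edgeR TMM factors, with DESeq2 factors and with the median gene set to 0. A larger pseudocount makes every difference smaller. FPKM summed to 473673 in Slit1 and 459452 in vector, below the TPM total, so a pseudocount of 1 weighs more there. The FPKM sum was also higher in Slit1, so ratios of Slit1 to vector are higher in FPKM than in TPM. How much of the FPKM count came from either was not tested. Of all genes tested 490 were higher and 637 lower, so that 43.5% of calls were higher; this share was 54.5% in FPKM (433 and 361), 52.5% in CPM, 54.2% with edgeR TMM factors, 54.6% with DESeq2 size factors and 54.3% with the median gene set to 0. With a pseudocount of 5 the all-gene counts were 258 and 277, and with intervals wholly beyond 1.5-fold 260 and 251. For the 13 lists, 143 counts of lower genes were recomputed, and 27 were smaller and 10 larger by over 1.5 times; of the 143 counts of higher genes 8 were smaller and 4 larger. Every larger count came from the weaker limit of 0.32, where a count cannot fall. Some of the smaller counts came from the 2-fold limit, where a count cannot rise. Sesn1 and Tsc2 changed sign between scalings, from -0.02 to 0.05 for Sesn1 and from -0.01 to 0.05 for Tsc2. So did the medians of 5 lists, which reached 0.01 for the mTOR complexes, 0.02 for the TSC list, 0.03 for substrates, 0.04 for ATF4 targets and 0.05 for the GATOR list. No paired analysis was possible because each group has 1 library. Depth limits the low genes most: Pdk4 and Ankrd37 rest on 25 counts or fewer.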

Other observations

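Genes induced by hypoxia or glucocorticoids, a list that includes Ddit4, lay on both sides. Of 13 measured, 2 were at least 1.5-fold higher in Slit1 and 2 lower, with a median of -0.09. Over all genes tested 3.72% were higher and 4.83% lower. In FPKM, in CPM, with edgeR TMM or DESeq2 factors and with a pseudocount of 5, 1 listed gene was higher and 1 lower. Besides Sgk1, the higher gene was Ankrd37, which rested on 13 counts in Slit1 and 6 in vector, with an interval of its ratio from 0.742 to 6.71. Adm, which encodes the vasodilator peptide adrenomedullin, measured 13.5 TPM in Slit1 and 23.02 TPM in vector (1.70-fold lower, interval 1.39 to 2.08). Klf9, a transcription factor named after its value was seen, measured 57.8 TPM in Slit1 and 87.7 TPM in vector.

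The deposited counts and FPKM together imply a transcript length for each gene and library, an average over the isoforms the authors' counting assigned. For 7 of the 10 genes it differed by under 1% between the libraries, as it did for 61.8% of all genes tested. The exceptions were Sesn1, at 2566 bases in Slit1 and 2691 bases in vector, Deptor, at 6227 bases in Slit1 and 6403 bases in vector, and Rptor, at 5858 bases in Slit1 and 6011 bases in vector. Sesn3 had 2874 bases in Slit1 and 2873 bases in vector.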
